A study of Mus musculus with 6 samples.

Results

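Hippocampal RNA pools of mice heterozygous for p300 (p300+/-) and of wild-type littermates were divided here into sets that cut across the genotype. The first set held the arrays p300+/- 1, wild-type 1 and wild-type 3. The second set held p300+/- 2, p300+/- 3 and wild-type 2, so that all 6 arrays of the series were used, 3 in each set. The sets were chosen from the measured values themselves. Every difference between them is therefore a description of these 6 arrays, and no test of it is given. The sets do not balance genotype, since the first held 1 p300+/- pool and the second 2.

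Mice of both genotypes were 3-month-old females on a C57BL/6 background, with no treatment named. The p300+/- mice are heterozygous for a deficiency of p300, the acetyltransferase encoded by Ep300, and the wild-type mice are their littermates. Hippocampal RNA of 4 animals was combined in equal amounts for each array, 12 animals per genotype and 24 in all. The mutant allele itself is not described in the sources used here. A pool hides the spread between its 4 animals, and the 3 pools of a genotype were described as independent biological replicates. Expression was measured on Affymetrix Mouse Genome 430 2.0 arrays, on which most genes are read by 1 or more probe sets of short oligonucleotides. Each deposited value is a log intensity relative to that probe set's own median over the 6 arrays. The base was taken as 2 from the values' binary spacing and is not stated in the sources used here, so directions do not depend on it and fold changes do. Setting aside 64 controls left 45037 probe sets. Of these, 34945 had a single gene symbol and 9160 had none.

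The hippocampus is a folded cortical structure built of dentate granule cells and CA pyramidal neurons with interneurons, glia and vessels between them. It borders the ventricle, whose walls carry ciliated ependymal cells and the choroid plexus, and it is dissected from a brain that also holds the pituitary gland at its base.

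Ep300, the gene that is reduced by design, followed the genotype and not the sets. It read -0.26, -0.22 and -0.50 on p300+/- 1, 2 and 3 and 0.22, 0.38 and 0.40 on wild-type 1, 2 and 3, a genotype difference of -0.66 ± 0.13 (SE) with every p300+/- pool below every wild-type pool. Its difference between the sets was 0.23 and the sets overlapped. Where in the transcript this probe set lies relative to the mutation was not determined.

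The arrays did not form 2 even clusters. p300+/- 3 and wild-type 2 resembled each other most, with a Pearson correlation of 0.55 over all probe sets. p300+/- 1 and wild-type 1 came next, at 0.45. wild-type 3 was close to neither of the others in its set, at 0.04 with p300+/- 1 and 0.11 with wild-type 1. p300+/- 2 correlated at -0.12 with p300+/- 3 and at -0.16 with wild-type 2, and its highest value was 0.10, with wild-type 3. Placing p300+/- 2 in the second set is thus not borne out by these overall correlations. They are descriptions over probe sets that share arrays and centring, and subtracting the median of the same 6 arrays lowers all of them.

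**Figure D1:**
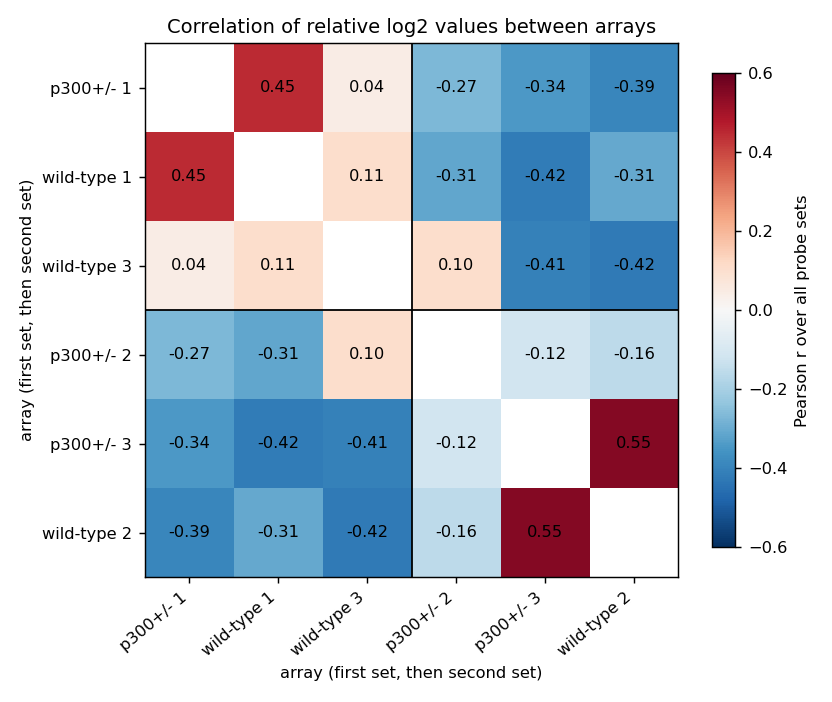
Pearson correlation of the relative log2 values over 45037 probe sets for each pair of arrays, with the first set above and left of the black lines. p300+/- 3 and wild-type 2 share the highest value, 0.55, while p300+/- 2 lies below 0 with both of them.

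The spread of the values differed as well. The SD over probe sets was 0.29 on p300+/- 3 and 0.33 on wild-type 2, against 0.18 to 0.21 on the other 4 arrays. Array weights fitted by limma, a measure of how well each array follows its genotype's mean, were lowest on wild-type 2 (0.379) and p300+/- 3 (0.580) and highest on wild-type 1 (3.17). Among probe sets whose sets did not overlap, p300+/- 2 was the array of the second set nearest the boundary in 60.5%, and wild-type 3 the array of the first set nearest it in 41.8%. Many results below are therefore given also without p300+/- 3 and wild-type 2, which leaves p300+/- 2 as the only array of the second set.

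A probe set was counted as apart when all 3 arrays of a set lay above all 3 of the other. In 4665 of 45037 probe sets (10.4%) the first set was higher, and in 4707 (10.5%) it was lower. Where sets are apart, centring on the median places the nearest array of each set at equal distances above and below 0, so that equal values of opposite sign in what follows are a product of that centring. Among those higher in the first set the medians were 0.19, 0.18 and 0.15 on p300+/- 1, wild-type 1 and wild-type 3. The same probe sets had medians of -0.11 on p300+/- 2, -0.28 on p300+/- 3 and -0.30 on wild-type 2.

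Large differences went mostly in 1 direction. A mean difference of at least 1 on the log2 scale, a doubling, was found in 452 probe sets higher in the first set (1.0%) and in 12 lower in it (0.0266%). Over these 452 probe sets the median was -0.35 on p300+/- 2, -0.89 on p300+/- 3 and -0.67 on wild-type 2. The rule for being apart fixes the sign of these medians, so they do not bear on where p300+/- 2 belongs. Of the 452, 194 kept a difference of at least 1 against p300+/- 2 alone, and 244 reached it within p300+/- arrays and within wild-type arrays separately. The probe sets nearest the limit were those of Trp53bp1 at 1.0013 inside it and an unnamed one just outside, at 1.0 after rounding, and, in the other direction, of Nts at -1.025 inside and of Zfp51 at -0.9981 outside.

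Most of these large differences were in probe sets that the platform annotation assigns to no single gene, 326 of 452 (72.1%). The largest of all was the unnamed probe set 1430362_at, which read 1.10, 0.83 and 0.51 on p300+/- 1, wild-type 1 and wild-type 3 and -0.51, -1.59 and -1.58 on p300+/- 2, p300+/- 3 and wild-type 2. The next, 1458693_at, differed by 2.03. Among the 9160 probe sets with no symbol 18.2% were higher in the first set and 3.55% were so by 2-fold, against 8.5% and 0.361% of the 34945 with a single symbol. Only 63 of the 452 (13.9%) were in the brighter class of probe sets, against 13213 of all 45037 (29.3%). That class holds those with a log2 level of 8 or more as far as the spacing of the values shows it.

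The largest differences of all named and unnamed probe sets were those of Gh and Prl, and they ran the other way. Gh encodes growth hormone and Prl prolactin, both made by cells of the anterior pituitary. Cga encodes the alpha subunit shared by thyrotropin and the gonadotropins. Transcription of Gh and Prl depends on the pituitary factor Pit-1, and that of Cga responds to cAMP. The promoters of Prl and Cga are shown because these genes were lower together in the first set, and that of the long noncoding RNA Meg3 because it was higher there on most of its probe sets. They are the 250 bases before the annotated start, from the RefSeq promoter table of GRCm38.p6, printed 5′ to 3′ on the gene's strand. Prl lies at chr13:27057320-27057569 (plus strand), Cga at chr4:34893529-34893778 (plus strand) and Meg3 at chr12:109540746-109540995 (plus strand). Capitals mark matches on either strand to TATNCAT (the Pit-1 core), TATAAA (the TATA box) and TGANGTCA (the cAMP response element with a free middle base).
Prl: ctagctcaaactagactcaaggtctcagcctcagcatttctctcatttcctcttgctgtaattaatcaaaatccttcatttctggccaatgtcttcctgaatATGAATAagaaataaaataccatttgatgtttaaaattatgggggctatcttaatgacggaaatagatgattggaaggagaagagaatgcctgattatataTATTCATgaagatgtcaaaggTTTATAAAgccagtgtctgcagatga
Cga: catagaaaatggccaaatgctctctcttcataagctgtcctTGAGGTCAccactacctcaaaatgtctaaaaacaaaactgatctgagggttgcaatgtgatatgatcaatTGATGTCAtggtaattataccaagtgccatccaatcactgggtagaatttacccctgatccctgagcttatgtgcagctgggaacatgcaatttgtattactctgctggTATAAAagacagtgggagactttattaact
Meg3: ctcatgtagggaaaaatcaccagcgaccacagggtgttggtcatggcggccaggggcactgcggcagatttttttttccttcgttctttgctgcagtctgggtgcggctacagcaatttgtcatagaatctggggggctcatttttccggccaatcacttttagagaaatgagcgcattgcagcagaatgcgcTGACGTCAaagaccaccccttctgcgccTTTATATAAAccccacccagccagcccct
The Prl window held TATTCAT from 47 to 41 bases before the start and its reverse complement, ATGAATA, from 148 to 142. The Cga window held TGATGTCA from 139 to 132 and TGAGGTCA from 209 to 202, and the Meg3 window held the palindrome TGACGTCA from 57 to 50. A TATA box match lay 24 to 19 bases before the start of Prl, 30 to 25 before that of Cga and 25 to 20 before that of Meg3, with an overlapping match on the other strand in Prl and Meg3. Among 27025 promoters of the same length 8.16% held TATNCAT, 13% (3504) held TATAAA and 7.59% held TGANGTCA. These matches describe letters in a window and were not set against binding data.

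All 4 Gh probe sets were lower in the first set on every array. On the probe set with the largest difference, Gh read -1.43, -0.73 and -3.22 on p300+/- 1, wild-type 1 and wild-type 3, against 0.73, 0.80 and 1.34 on p300+/- 2, p300+/- 3 and wild-type 2. The difference of -2.75 is a 6.73-fold lower value in the first set, and the 4 probe sets ranged from -2.75 to -2.33. wild-type 3 was the lowest array and wild-type 2 the highest, so the extremes were both wild-type pools. The 4 probe sets read overlapping transcripts and are not independent of each other.

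Prl followed the same order of arrays at the low end. It read -1.46, -0.51 and -3.04 on p300+/- 1, wild-type 1 and wild-type 3 and 0.60, 0.51 and 0.70 on p300+/- 2, p300+/- 3 and wild-type 2. The difference was -2.27, and it was the same against p300+/- 2 alone. The 3 arrays of the second set lay close together, while those of the first were far apart.

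Cga was different in that a single pool stood out. Its values were -0.30, -0.08 and -0.68 in the first set and 0.55, 0.08 and 2.65 in the second, the last being wild-type 2. Its difference of -1.44 became -0.90 against p300+/- 2 alone. Fshb, the beta subunit of follicle-stimulating hormone, was also high on wild-type 2 only, at 0.99 against -0.05 to 0.17 elsewhere.

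The other hormones of the list differed less. Pomc, the precursor of corticotropin, overlapped between the sets on both of its probe sets, with differences of -0.74 and -0.72. Oxt, the hypothalamic precursor of oxytocin, was lower in the first set by a small margin, with a difference of -0.22. Tshb, Lhb and Avp overlapped, at -0.21, -0.13 and -0.06. In all, 5 of 9 hormone genes were lower in the first set, where 12.4% of 18193 genes were lower and 6.9% higher when each gene is read by its first probe set. The mean over the 9 genes was -0.39, -0.16 and -0.98 in the first set and 0.24, 0.27 and 0.66 in the second. Over all 18193 genes the means were -0.01, -0.03 and -0.02 against 0.00, 0.05 and 0.03. In bulk samples such as these pools, fewer cells of a type and less RNA per cell cannot be told apart, and the part of pituitary tissue in these values was not tested.

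Several long noncoding RNAs were higher in the first set. Meg3 is a maternally expressed RNA of an imprinted cluster on chromosome 12, retained mostly in the nucleus. Of its 11 probe sets 10 were higher in the first set, with differences of 0.57 to 1.64 over all 11. On the probe set with the largest difference the first set read 0.87, 1.03 and 0.47 and the second -0.47, -0.67 and -1.40. The remaining probe set overlapped only in that wild-type 3 (-0.02) fell just below p300+/- 2 (0.02). Against p300+/- 2 alone the differences ran from 0.28 to 1.27, so the direction held on all 11.

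Rian and Mirg, noncoding RNAs from the same cluster, were read less evenly. Rian had 1 of 4 probe sets higher in the first set, at 1.04, 0.87 and 0.29 against -0.29, -1.05 and -0.89. The other 3 overlapped, with differences from -0.39 to 0.22. Mirg had 1 of 2 probe sets higher, with a difference of 0.63. The probe sets of the cluster thus did not all differ alike.

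Malat1, an abundant RNA of nuclear speckles, had 4 of 7 probe sets higher in the first set. Its largest difference, 1.54, came from values of 1.21, 2.24 and 0.08 against -0.65, -0.08 and -0.35. wild-type 1 stood highest and wild-type 3 barely cleared the second set. The 3 probe sets that overlapped differed by 0.18 to 0.31, so probe sets of this 1 transcript did not give the same size of difference.

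Snhg11, a host RNA for small nucleolar RNAs that is prominent in neurons, was higher on both probe sets. The larger difference was 1.82, from 1.32, 2.04 and 0.32 against -0.44, -0.32 and -1.04. Miat, another nuclear RNA of neurons, was higher on both probe sets with differences of 0.86 and 0.25. Snhg1 and Snhg3, which also host small nucleolar RNAs, went the other way, at -0.41 and -0.33. Of 17 nuclear noncoding RNAs measured 5 were higher in the first set (29.4%) and 2 lower (11.8%), against 6.9% and 12.4% of all genes. The list's mean on wild-type 3 (-0.01) was above those of the second set (-0.12, -0.03 and -0.05) by a narrow margin. The list's median difference of 0.10 turned to -0.03 without wild-type 1, so the list as a whole has no settled direction.

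**Figure D2:**
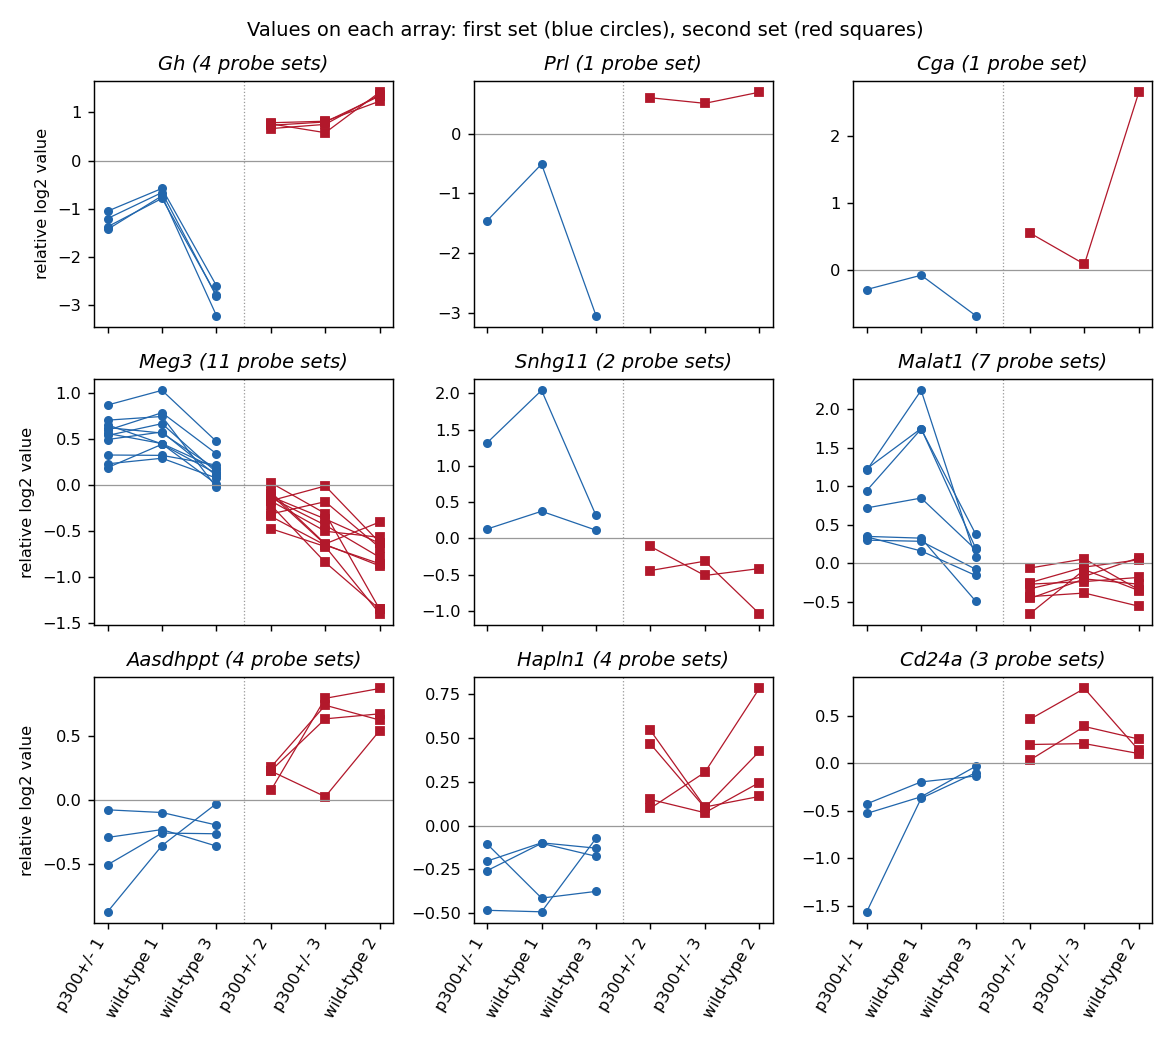
Relative log2 values on each array for 9 genes, with the first set as blue circles and the second as red squares. Lines join values of 1 probe set within a set and carry no order. Gh and Prl are lowest on wild-type 3, Cga is highest on wild-type 2, and Malat1 and Snhg11 are highest on wild-type 1.

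Several protein-coding genes with large differences are known for roles in neurons, and their probe sets often disagreed. Kalrn encodes kalirin, a protein of dendritic spines. Its leading probe set read 1.09, 1.34 and 0.54 in the first set and -0.82, -0.54 and -1.06 in the second, a difference of 1.80. Among its 8 probe sets only 2 were apart, and differences ran from -0.29 to 1.80. Arpp21, a cAMP-regulated phosphoprotein, had a leading probe set at 0.48, 0.49 and 0.46 against -0.46, -1.92 and -1.42, yet its 5 probe sets ran from -0.35 to 1.74.

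Fgf14, which modulates voltage-gated sodium channels, had probe sets apart in both directions. Its highest probe set read 1.17, 0.88 and 0.49 against -0.83, -0.92 and -0.49, with a difference of 1.59. Another read -0.14, -0.20 and -0.48 against 0.14, 0.30 and 0.14, with a difference of -0.46. A statement on the gene's total transcript level can thus not be made from these values. Rasal2 (a Ras GTPase-activating protein) and Mid1 (a microtubule-associated ubiquitin ligase) showed the same unevenness, with differences of -0.04 to 1.61 over 3 probe sets and of -0.06 to 1.59 over 3. Kcnma1, the BK potassium channel, had 2 of 5 probe sets higher in the first set, and its 5 differences ran from 0.05 to 1.39.

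Camk2a encodes the alpha subunit of the calcium and calmodulin dependent kinase II of the postsynaptic density. It showed how the second set divides. On 1 probe set, values were 1.11, 0.58 and 0.18 against -0.18, -1.49 and -1.10, a difference of 1.55. On the probe set with its largest difference, 1.66, p300+/- 2 read 0.10 and lay among the first set (0.23, -0.10 and 0.33), while p300+/- 3 and wild-type 2 read -1.83 and -2.80. Against p300+/- 2 alone the latter difference was 0.05, and the 6 Camk2a probe sets ran from -0.14 to 0.80.

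Across the array, 117 genes had a probe set higher in the first set by 2-fold, and 107 of them had at least 1 more probe set. In 52 of these 107 another probe set was also higher, and in 12 another was lower. The other 346 probe sets of these genes had a median difference of 0.18, against -0.05 over all probe sets with a single symbol. Of the 346, 82 were higher (23.7%) and 12 lower (3.47%), against 8.5% and 11.2% of all probe sets with a single symbol. Of 9010 genes with at least 2 probe sets, 94 (1.04%) had every probe set higher in the first set and 135 (1.5%) every probe set lower. A further 219 genes (2.43%) had probe sets apart in both directions.

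**Figure D3:**
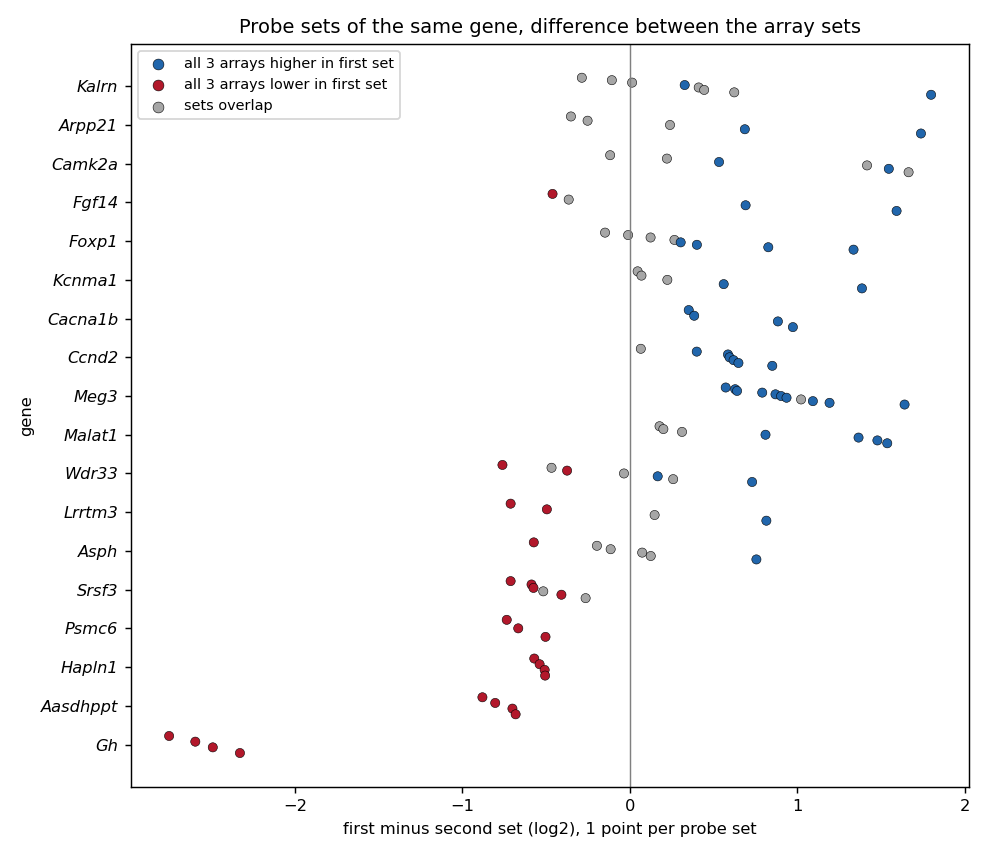
Difference between the array sets (first minus second, log2) for every probe set of 18 genes, each point being 1 probe set, coloured blue or red where the sets did not overlap and grey where they did. Probe sets of Gh, Aasdhppt, Hapln1, Psmc6 and Meg3 lie together, while those of Kalrn, Arpp21, Fgf14, Wdr33 and Lrrtm3 are spread over both sides of 0.

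Discordant probe sets were seen most sharply in 10 genes with differences of at least 0.5 in each direction. Wdr33 encodes a subunit of the complex that recognises the polyadenylation signal. One of its 7 probe sets read -0.50, -0.20 and -0.51 in the first set and 0.20, 0.32 and 0.55 in the second, while another read 0.11, 0.52 and 0.56 against -0.11, -0.52 and -0.37. Lrrtm3, a synaptic adhesion protein, ranged from -0.71 to 0.81 over 4 probe sets. Asph, an aspartyl hydroxylase gene with several distinct products, ranged from -0.57 to 0.76. Zfp277 and Zfp207, both zinc finger genes, ranged from -0.60 to 0.60 and from -0.61 to 0.61, and Ccdc58 from -0.55 to 0.58. Which transcript ends or introns these probe sets read was not tested, because no genome was used here.

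Other genes had every probe set higher in the first set. Lrp1, a large endocytic lipoprotein receptor, read 0.63, 0.57 and 0.26 against -0.26, -0.72 and -0.84 on its larger probe set and differed by 0.53 on the other. Dnm1 encodes dynamin 1, which pinches off synaptic vesicles. Its probe sets differed by 0.75 and 0.59, but p300+/- 2 (-0.01 and -0.02) was level with the first set, and the low arrays were p300+/- 3 and wild-type 2. Pacsin1, a partner of dynamin, behaved alike with 0.67 and 0.51. Zswim8 (a ubiquitin ligase adaptor) differed by 0.58 and 0.99, Cnot3 (a subunit of the CCR4-NOT deadenylase) by 0.51 and 0.85, and Vwa5b2 by 0.57 and 0.95. Both probe sets of 2310067E19Rik, 9530059O14Rik and Trpc2 were higher too, with smallest differences of 0.93, 0.74 and 0.74.

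Ccnd2, which encodes the cell cycle regulator cyclin D2, was higher in the first set on 6 of 7 probe sets. Its largest difference, 0.85, came from 0.09, 0.29 and 0.50 against -0.09, -0.66 and -0.92. The N-type calcium channel gene Cacna1b was higher on all 4 probe sets, by 0.35 to 0.97. On the widest of these p300+/- 2 read -0.08, next to 0.20, 0.08 and 0.10 in the first set, while p300+/- 3 and wild-type 2 read -1.19 and -1.28.

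That pattern, with p300+/- 2 beside the first set, was also seen in the means of the synaptic gene lists. Of 39 genes for glutamate receptors and the postsynaptic density 10 were higher in the first set (25.6%) and 1 lower (2.56%), against 6.9% and 12.4% of all genes. Their median difference was 0.22, against -0.06 over all 18193 genes. Dlgap2, a scaffold of the postsynaptic density, read 0.16, 0.39 and 0.03 against -0.03, -1.38 and -1.50. Dlgap4 differed by 0.74 and Grik5, a kainate receptor subunit, by 0.73. Without p300+/- 3 and wild-type 2 the median of the list was 0.01.

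Synaptic vesicle and release genes were higher in 8 of 41 (19.5%, against 6.9% of all genes) and lower in none, with a median of 0.23. The list's means were 0.05, 0.02 and 0.09 in the first set, 0.10 on p300+/- 2, and -0.20 and -0.44 on p300+/- 3 and wild-type 2. Sv2a, a vesicle glycoprotein, differed by 0.44, and it kept 0.41 against p300+/- 2 alone. Unc13b, which primes vesicles for fusion, differed by 0.51. The list's median was -0.01 against p300+/- 2 alone.

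Ion channel genes went with the synaptic ones. Of 21 calcium and sodium channel genes 6 were higher (28.6%) and 1 lower (4.76%), against 6.9% and 12.4% of all genes. Their median of 0.29 became 0.00 against p300+/- 2 alone. Scn8a, the Nav1.6 sodium channel, read 0.01, 0.02 and 0.12 against -0.01, -0.98 and -0.97. Cacna1a, the P/Q-type calcium channel, followed a graded order instead, at 1.00, 0.77 and 0.13 against -0.13, -0.36 and -0.97. Of 34 potassium channel genes 4 were higher (11.8%) and 1 lower (2.94%), with a median of 0.12 that was -0.04 against p300+/- 2 alone. Kcnc1 led at 0.84, but another of its 4 probe sets was lower in the first set, at -0.15.

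Molecular motors were higher in 5 of 24 genes (20.8%, against 6.9% of all genes) and lower in 0. The list's median of 0.11 was 0.01 against p300+/- 2 alone, as for the synaptic lists. The list's means on the 3 arrays of the first set (0.06, 0.07 and 0.07) were above all 3 of the second (0.01, -0.12 and -0.21). Kif5c, a kinesin heavy chain of neurons, read 0.23, 0.71 and 0.42 against -0.54, -0.23 and -0.59, and kept a difference of 1.00 against p300+/- 2 alone. Its 3 other probe sets overlapped, and against p300+/- 2 alone the 4 ran from -0.80 to 1.00. Dctn1 (dynactin) differed by 0.64 and Dync1h1 (the dynein heavy chain) by 0.49.

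Other genes had every probe set lower in the first set. Aasdhppt transfers phosphopantetheine to carrier proteins of fatty acid synthesis. All 4 of its probe sets were lower, and the one with the largest difference read -0.50, -0.26 and -0.26 against 0.26, 0.74 and 0.62, a difference of -0.88. Vamp7, a vesicle SNARE, read -0.43, -0.19 and -0.48 against 0.19, 0.76 and 0.80 on its larger probe set (-0.95) and differed by -0.54 on the other. Glrx, the thiol reductant glutaredoxin, differed by -0.74 and -0.65, with p300+/- 2 at 0.12 and 0.02 and the other 2 arrays of its set at 0.73 to 0.86.

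Cd24a, a surface glycoprotein of immature neurons and ependyma, was lower on all 3 probe sets, at -0.84, -0.71 and -0.53. On the first of these p300+/- 1 alone read -1.56, with wild-type 1 at -0.37 and wild-type 3 at -0.10. Hapln1, which links hyaluronan to proteoglycans of the perineuronal net, was lower on all 4 probe sets, within a narrow range of -0.57 to -0.51. One of them read -0.26, -0.10 and -0.18 against 0.47, 0.10 and 0.42, so that p300+/- 2 here was the highest array. Against p300+/- 2 alone Hapln1 kept differences of -0.84 to -0.24.

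Scoc, a Golgi and autophagy protein, differed by -0.72 and -0.64, and Ints12, a subunit of the Integrator complex, by -0.65 and -0.64. Mis18a, which loads centromeric histone, differed by -0.77 and -0.55, Zfp930 by -0.78 and -0.56 and Tmem123 by -0.65 and -0.53. Single probe sets with larger differences were those of Psg28 (-1.26), Acer3 (-1.15), Chst9 (-1.13), Nts (-1.02) and Ccnc (-0.97). For Nts, the neurotensin precursor, the values were -0.43, -0.13 and -0.27 against 0.13, 1.11 and 1.01. Acer3, an alkaline ceramidase, had 3 further probe sets that overlapped, with differences of -0.11 to 0.15, and Ccnc, the cyclin of the Mediator kinase module, had 3 of 5 probe sets lower.

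Housekeeping complexes were lower in the first set as lists. Of 31 proteasome subunits 6 were lower (19.4%) and 1 higher (3.23%), against 12.4% and 6.9% of all genes. A difference below 0 was found in 26 of the 31 (median -0.19), against 11591 of all 18193 genes (median -0.06). Psmc6, an ATPase subunit, was lower on all 3 probe sets at -0.74, -0.67 and -0.50. Of 73 mitochondrial ribosomal proteins 10 were lower and 1 higher (median -0.17), a share of 13.7% lower against 12.4% of all genes. Mrps31 read -0.04, -0.18 and -0.21 against 0.04, 0.82 and 0.78. Of 71 genes for the respiratory chain and ATP synthase 8 were lower (median -0.14), led by Ndufs4 at -0.49. Of 43 cytosolic ribosomal proteins 2 were lower, led by Rps20 at -0.47 on its first probe set, and 35 had differences below 0 (median -0.14). The shares apart in the respiratory and both ribosomal lists were near or under the background, so these lists show a small shift in their medians rather than many genes apart.

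These medians too came from p300+/- 3 and wild-type 2. Against p300+/- 2 alone they were 0.01 for the proteasome, 0.04 for mitochondrial and 0.10 for cytosolic ribosomal proteins, and 0.05 for the respiratory chain. The means of these 4 lists were 0.15 to 0.25 on p300+/- 3 and wild-type 2 and -0.14 to 0.02 on the 4 other arrays. The arrays that were low for synaptic and channel genes were thus the arrays high for proteasome, mitochondrial and ribosomal genes. The part of neuron content in these values was not tested.

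Heat shock genes did not follow that division. Of 23 measured 5 were lower in the first set (21.7%, against 12.4% of all genes) and 0 higher, and the means were -0.15, -0.13 and 0.03 against 0.09, 0.13 and 0.05. The median of -0.13 was -0.25 against p300+/- 2 alone, further from 0. Dnajb4, a co-chaperone of the Hsp40 family, read -0.15, -0.19 and -0.07 against 0.34, 0.16 and 0.07. Dnaja1 was lower on 2 of 3 probe sets and Dnajc3 on 3 of 5, with largest differences among those of -0.38 and -0.50.

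Of 39 SR proteins and hnRNPs 6 were lower (15.4%) and 4 higher (10.3%) in the first set, near the 12.4% and 6.9% of all genes. Srsf3 was lower on 4 of 6 probe sets, with differences of -0.71 to -0.26, and Srsf10 on 2 of 4, led by -0.87. Rbm5 was higher on 3 of 5 probe sets, led by 1.12, and Rbm25 and Tra2a were higher by 0.45 and 0.42 on the first probe set. The brain-enriched Rbfox3, which marks mature neurons as NeuN, was higher on 2 of 3 probe sets and Fxr1 lower on 2 of 4.

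**Figure D4:**
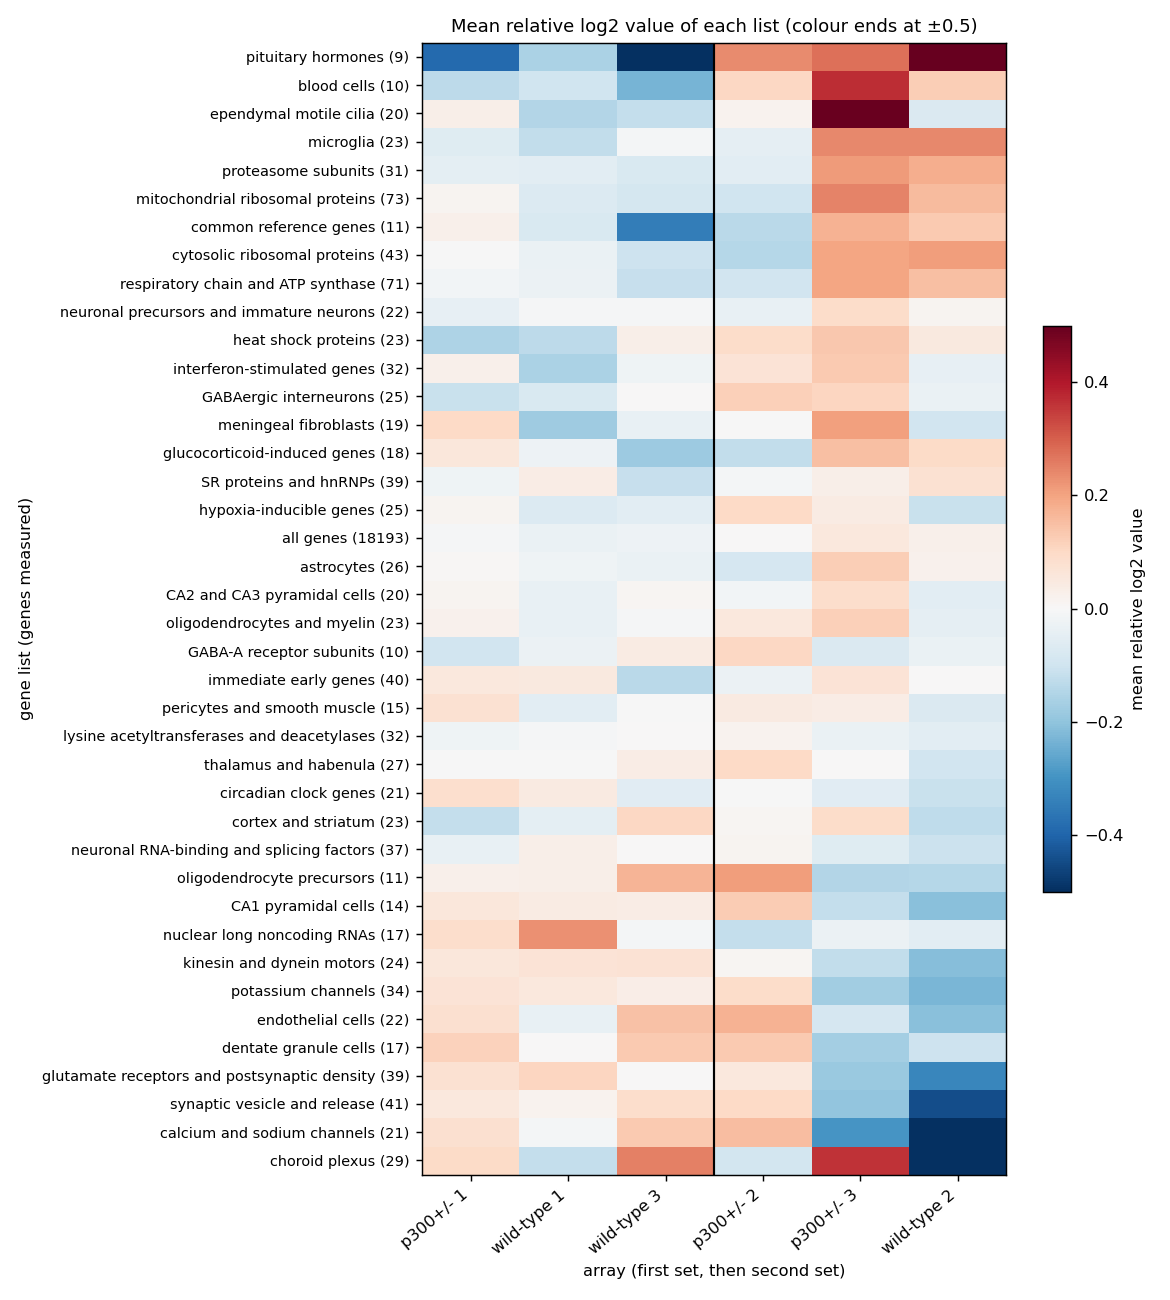
Mean relative log2 value of each gene list on each array, with the number of genes measured in brackets and the lists ordered by their median difference between the sets. Pituitary hormones and blood cells change colour at the line between the sets, synaptic and channel lists are low on p300+/- 3 and wild-type 2 only, and the choroid plexus list is low on wild-type 2 only (-1.56).

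Cell types were followed with marker lists. The levels behind them are not in the data, so that the hippocampal label can be checked only by how many markers fell in the brighter class, 11 of 14 for CA1 pyramidal cells, 20 of 26 for astrocytes and 5 of 17 for dentate granule cells, against 6160 of all 18193 genes. Of the CA1 markers 4 were higher in the first set and 2 lower, or 28.6% and 14.3% against 6.9% and 12.4% of all genes. The list was mixed, with 8 of the 14 above 0 and 6 below. The median of 0.08 was -0.03 against p300+/- 2 alone. Fibcd1 and Wfs1, which mark CA1, were among those higher. Fibcd1 read 0.18, 0.21 and 0.19 against -0.18, -0.47 and -0.58, and Wfs1 0.07, 0.19 and 0.20 against -0.07, -0.45 and -0.77. Unlike the list's median, both stayed above 0 against p300+/- 2 alone, at 0.37 and 0.22. Dentate markers had a median of 0.18, which was 0.01 against p300+/- 2 alone, with 2 of 17 higher and 1 lower, C1ql2 being higher by 0.38 and Calb1 lower by its first probe set, at -0.32, while another of its 4 probe sets was higher. CA2 and CA3 markers were close to the background at 2 of 20 higher and 1 lower.

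Interneuron markers were near the shares of all genes, with 4 of 25 lower (16%) and 1 higher (4%). Vip, a neuropeptide of a class of interneurons, read -0.27, -0.03 and -0.02 against 0.02, 0.88 and 0.76. Tac1, the substance P precursor, differed by -0.70 on its first probe set, while its other overlapped at -0.01. Against p300+/- 2 alone the 2 Tac1 probe sets read -0.39 and 0.21. Gad1, which makes GABA, overlapped at -0.05. Markers of precursors and immature neurons had 3 of 22 higher (13.6%) and 1 lower (4.55%), against 6.9% and 12.4% of all genes. Among those higher were Dcx and Sox11, at 0.27 and 0.34 on their first probe sets. The list's median was -0.14, with 15 of 22 genes below 0, and it was 0.02 against p300+/- 2 alone. Over all genes the median was -0.06, with 11591 of 18193 below 0. The 5 other Sox11 probe sets overlapped.

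Among glia, microglial genes differed most. Of 23 microglial genes 21 had differences below 0, against 11591 of all 18193 genes. Of the 23, 4 were lower in the first set (17.4% against 12.4% of all genes). The median was -0.23, against -0.06 over all genes. P2ry12, the purinergic receptor of resting microglia, read -0.28, -0.48 and -0.20 against 0.20, 0.50 and 0.49. Gpr34 differed by -0.73 and P2ry13 by -0.36. The list's mean was 0.24 on both p300+/- 3 and wild-type 2 and -0.12 to -0.01 on the other 4 arrays, and its median against p300+/- 2 alone was 0.01. Against p300+/- 2 alone P2ry12 kept -0.52, while Tyrobp and Aif1 turned to 0.43 and 0.34. Cx3cr1, another microglial receptor, went the other way from most of the list, at 0.66 with overlapping sets.

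Astrocyte and oligodendrocyte lists were under the shares of all genes, 6.9% higher and 12.4% lower. In 26 astrocyte genes 2 were lower and 1 higher, and in 23 oligodendrocyte genes 1 was lower. In 11 oligodendrocyte precursor genes 1 was higher (9.09%), and 10 had differences above 0, against 6602 of all 18193 genes. The median of the precursor list was 0.07, against -0.06 over all genes, and -0.04 against p300+/- 2 alone. Endothelial markers had 2 of 22 higher (9.09%) and 1 lower (4.55%). Their median of 0.16 rested on p300+/- 3 and wild-type 2, since it was -0.12 against p300+/- 2 alone. Pericyte markers had 2 of 15 higher (13.3%) and 1 lower (6.67%).

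Blood cell genes were lower in the first set in 6 of 10 (60%, against 12.4% of all genes). S100a9, a granule protein of neutrophils, read -0.48, -0.29 and -0.50 against 0.29, 0.80 and 0.36. Alas2, which starts heme synthesis in red cells, read -0.13, -0.28 and -0.32 against 0.17, 0.86 and 0.13. S100a8 differed by -0.57, Bpgm by -0.38, Camp by -0.31 and Isg20 by -0.23. The list's means were -0.13, -0.10 and -0.23 in the first set and 0.10, 0.37 and 0.12 in the second, with p300+/- 3 highest, and the median against p300+/- 2 alone was -0.25. Blood is a bystander of dissected brain tissue, and its share in each pool was not tested.

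Neighbouring structures marked single arrays rather than sets. Choroid plexus genes had a median difference of 0.69, but only Slc4a2 was apart. Ttr, the thyroid hormone carrier of the plexus, read 0.04, -0.04 and 0.02 in the first set, -0.02 on p300+/- 2, 0.02 on p300+/- 3 and -3.20 on wild-type 2. Kcnj13 and Kcne2, potassium channel genes of the plexus, read -3.60 and -3.21 on that array. The list's mean was -1.56 on wild-type 2 and -0.12 to 0.36 on the others, so the median difference reports 1 array. Ependymal cilia genes were highest on p300+/- 3, with a mean of 0.49 against -0.15 to 0.03 on the others. Of 20 genes, 4 were lower in the first set (20%, against 12.4% of all genes), led by Enkur at -0.70. Markers of thalamus and habenula were near the background, with 1 of 27 higher. Meningeal fibroblast genes were lower in 3 of 19 (15.8%), near the share of all genes. These were Lum, Col1a2 and Ogn, at -0.59, -0.49 and -0.26 on their first probe sets.

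For activity-regulated and stress genes the shares to compare with are 12.4% of all genes lower and 6.9% higher. Of 40 immediate early genes 4 were lower in the first set (10%) and 1 higher (2.5%). Npas4, an activity-dependent transcription factor, read 0.10, 0.03 and 0.19 against -0.03, -0.71 and -0.44, while Crem, a cAMP-responsive factor, differed by -0.80. Of 18 glucocorticoid-induced genes 0 were apart. Of 32 interferon-stimulated genes 6 were lower (18.8%), led by Rtp4 at -0.49. Circadian genes had 2 of 21 higher and 2 lower, with Dbp at 0.73 on its first probe set. Among hypoxia-inducible genes, 4 of 25 were lower and 2 higher, with Egln3 lower on both probe sets and Hk1 higher on both. Of 11 common reference genes 3 were lower (27.3%), Tbp at -0.66, B2m at -0.26 and Pgk1 at -0.14 on their first probe sets.

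Of 32 acetyltransferases and deacetylases 3 were higher (9.38%) and 4 lower (12.5%) in the first set, near the 6.9% and 12.4% of all genes. The list's median was 0.00. Hat1, a histone H4 acetyltransferase, was lower at -0.66. Hdac6 and Hdac4 were higher at 0.45 and 0.39, and Crebbp, the close relative of Ep300, at 0.24.

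Against the genotype, the only comparison the labels state, 0 of 45037 probe sets (0.0%) passed an adjusted p of 0.05 in limma, and 550 had an unadjusted p under 0.05. Even Ep300 had an adjusted p of 0.9999 (unadjusted p = 0.00103, limma). P-values here measure the spread between 3 pools per genotype, which includes the differences between the array sets. With the array set as a covariate in limma, 1764 of 45037 probe sets had an unadjusted p under 0.05 and still 0 passed after adjustment. The sets were chosen from these same values, which lowers the spread left in that fit, so its p-values are not a valid test. Among the probe sets of the genes chosen for naming, 5 had an unadjusted p under 0.05 for genotype in limma, beside 550 of all 45037. After adjustment 0 passed. These 5 are given as values only, since their share was not set against that of all probe sets. Beside Ep300 these were 1 probe set each of Sox11 (-0.53 ± 0.16 SE), Zfp207 (-0.62 ± 0.25), Kcnma1 (-0.34 ± 0.12) and the adenylyl cyclase gene Adcy5 (0.30 ± 0.12). The genes with the largest differences between the sets had wide errors for genotype. Gh was 0.90 ± 1.11 (SE) in p300+/- relative to wild-type on its widest probe set, Prl 0.84 ± 0.95, the widest Meg3 probe set -0.13 ± 0.65 and the widest Malat1 probe set -0.50 ± 0.72, each with an adjusted p of 0.9999 in limma.

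Differences between the sets also followed properties of the genes and probe sets. Genes were divided into 5 equal groups by their span in the RefSeq table of GRCm38.p6, which held 18032 of 18193. The share higher in the first set was 3.02% in the shortest group (up to 6.3 kb) and 9.73% in the longest (over 64 kb), with 5.77%, 8.13% and 7.87% between them. The share lower was 12.8% in the shortest and 9.82% in the longest, with the highest value, 13.9%, in the middle. In the brighter class alone the shares higher were 5.86% and 15.0% for the shortest and longest groups. The median difference was -0.09 in the shortest group and -0.02 in the longest. Against p300+/- 2 alone these medians were -0.01 and -0.03, in the reverse order.

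Probe sets designed on expressed sequence tags were higher in the first set in 10.5% of 17656, against 5.64% of 6101 designed on RefSeq mRNAs and 6.32% of 6815 on full-length clones. In the brighter class the shares were 12.8%, 9.14% and 9.22%. By 2-fold, over all levels, the shares were 0.572%, 0.0983% and 0.147%. Median differences over all levels were -0.03, -0.07 and -0.07 in the same order. Against p300+/- 2 alone these medians were -0.02, -0.02 and -0.03, and in the brighter class -0.02, 0.00 and -0.01. The medians thus stood apart only with p300+/- 3 and wild-type 2 included.

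**Figure D5:**
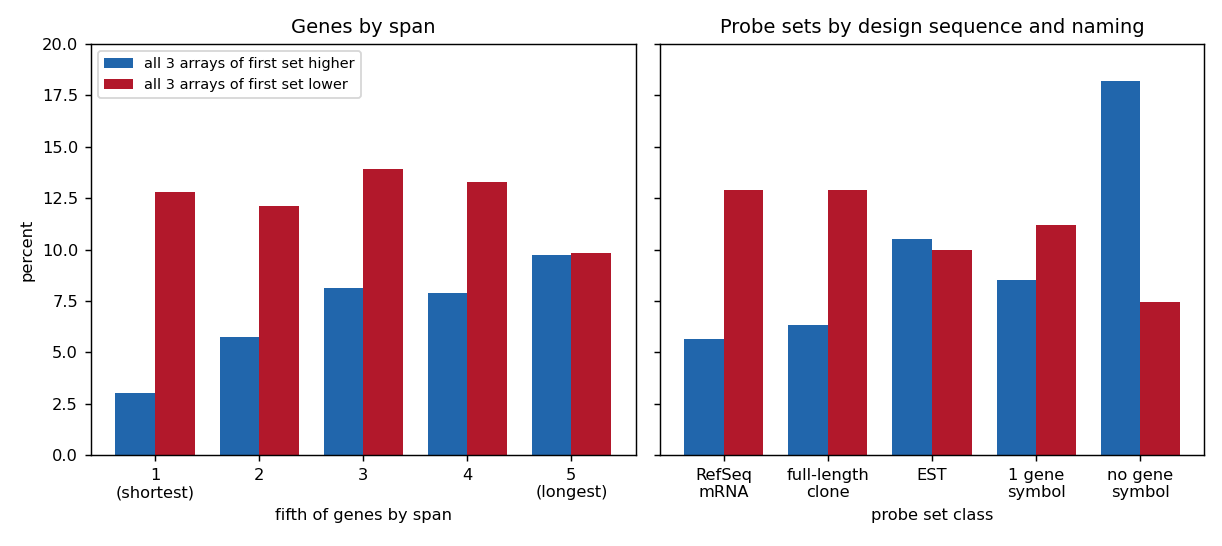
Percent of genes (left, by span) and of probe sets (right, by design sequence and by whether a gene symbol is assigned) with all 3 arrays of the first set higher (blue) or lower (red); both axes start at 0. The share higher rises from 3.02% to 9.73% with gene span and reaches 18.2% in probe sets with no symbol.

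Control probe sets did not divide as the sets do, apart from pyruvate carboxylase, for which 2 of 4 were higher in the first set. The mean of the 18 hybridization controls was lowest on p300+/- 2 (-0.89) and highest on p300+/- 3 (0.45), and that of the 24 poly-A controls highest on wild-type 3 (1.02). The 3 probe sets for 18S ribosomal RNA were low on wild-type 3 (-1.11) and p300+/- 2 (-1.32), and read -0.19 on p300+/- 1, 0.57 on wild-type 1, 0.23 on p300+/- 3 and 0.41 on wild-type 2. The 3′ minus 5′ difference for Gapdh ran from -0.10 to 0.05 over the 6 arrays and for beta-actin from -0.12 to 0.20. For the transferrin receptor it was 0.20 and 0.21 on p300+/- 1 and wild-type 1, -0.21 on wild-type 3, -0.20 on p300+/- 2, -0.18 on p300+/- 3 and 0.03 on wild-type 2, so that wild-type 3 and wild-type 2 fell outside the order of the sets. The part of RNA quality or labelling in the differences between the sets was not tested, and no processing batch is named in the sources used here.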

How the data were processed

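Hippocampal RNA pools were hybridised to Affymetrix Mouse Genome 430 2.0 arrays. Per the labels' protocols the authors processed and normalized the arrays in GeneSpring GX, with no version or summarization named. The deposited values are log2 intensities relative to each probe set's median over the 6 arrays, with the base read from the values' spacing, so they hold no absolute level. The number of arrays limits their precision. Genes were named from the platform annotation and updated through RefSeq (34741 of 34945 single-symbol probe sets matched).

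The array sets, lists and named genes were chosen with earlier results of these data known. Named were Ep300, the 10 genes per direction with every probe set apart and the largest smallest difference, 8 further genes per direction with the largest difference, 3 members of each list, and 6 genes with probe sets apart in opposite directions. Other names were chosen after their values were seen. Lists took each gene's first probe set. Genotype was tested with limma 3.58.1 (R 4.3.3), p-values being adjusted over all 45037 probe sets by Benjamini-Hochberg, and the script was tested on simulated data. Sets were compared in Python 3.11.15. Alternatives covered scaling, probe set filters, level, a replicate block and leaving out arrays, of which leaving out p300+/- 3 and wild-type 2 together was added after seeing the data. A check against promoter GC content was void, since 79.0% of genes had a value.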

Additional observations from a re-analysis of the deposited data

Results flagged for a closer look

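For 5 gene lists the mean difference between the array sets (first minus second, log2) was of opposite sign within the p300+/- arrays and within the wild-type arrays, with the list's mean on every array of a genotype going the same way. The differences between genotypes were not tested. For oligodendrocyte and myelin genes it was -0.0635 within p300+/- and 0.0224 within wild-type. For thalamus and habenula genes it was -0.0516 and 0.113, and for cortex and striatum genes -0.1713 and 0.1538. For GABA-A receptor subunits it was -0.1129 and 0.0418, and for hypoxia-inducible genes -0.0574 and 0.0496.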

How the results depend on the processing

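The sets were selected on these values, so the counts describe the arrays only. Leaving out 1 array at a time gave 5733 to 9012 probe sets higher and 6075 to 11425 lower in the first set, and by 2-fold 360 to 904 and 9 to 94. Each highest count came without p300+/- 2. Without p300+/- 3 and wild-type 2 together, 11794 were higher, 12769 lower, 351 higher by 2-fold and 57 lower by 2-fold. Leaving out arrays makes the rule for being apart easier to meet. Such counts, of probe sets or of lists, are thus not comparable with those from all 6 arrays. The brighter class of 13213 probe sets held 1550 and 1387, and by 2-fold 63 and 4. A difference of at least 0.5 gave 2095 and 517. Quantile normalization gave 28 lower by 2-fold, and leaving out probe sets that can bind several transcripts gave 6. Lists with array means apart numbered 5 of 39, but 3 without the latter probe sets. They numbered 22 without p300+/- 3 and wild-type 2, 25 without p300+/- 2, and 9 without wild-type 2 or wild-type 3. The mean over all 18193 genes was itself apart and lower in the first set, so means apart in that direction are not particular to a list. The median of nuclear noncoding RNAs ranged from -0.0265 without wild-type 1 to 0.1262 without wild-type 3, and was -0.0084 within p300+/- arrays and -0.0391 within wild-type arrays; the cause was not tested. Of 544 list values compared, these included, 65 moved and 3 reversed, and of 1525 values of named genes 89 moved and 0 reversed. For genotype, 0 probe sets were called by limma under every alternative run, with 475 to 1151 at an unadjusted p under 0.05 when 1 array was left out. The lowest adjusted p in limma was 0.0668 with trend and robust moderation, against 0.9999 in the main fit. A threshold of 0.1 was tried on the main fit only. Deviations from the genotype means of same-numbered arrays correlated at 0.61, -0.23 and -0.47, which gives no pairing by number, and the fit with a replicate block called 0, with 604 at an unadjusted p under 0.05.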
